A study of Mus musculus with 8 samples.

Results

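The AP-1 and BATF factors described here are 10 genes, Fos, Fosb, Fosl2, Jun, Junb, Jund, Atf3, Batf, Batf3 and Bhlhe40. They were taken by symbol from the 27998 genes of the deposited table, and all 10 matched 1 row each. Their transcripts were counted in single cells sorted as CD45+ from subcutaneous B16-OVA tumors, a mouse melanoma line that makes ovalbumin. The mice were female C57BL/6, 7 weeks old at tumor injection. The study describes the sorted cells as enriched in CD8+ cells, so counts of cell types do not give the make-up of the tumors. The study asked how adoptive cell therapy (ACT) with OT1 cells, CD8+ T cells whose receptor recognizes ovalbumin, alters tumor-infiltrating leukocytes when the OT1 cells secrete engineered proteins. PD1d is a secreted PD-1 decoy, IL-2v an interleukin-2 variant that does not engage the CD25 chain of the receptor, and IL-33 an alarmin cytokine. The 8 libraries were 1 of non-treated tumors at day 5, 2 after ACT with untransduced OT1 cells at days 5 and 12, 1 after PD1d/IL-2v ACT at day 12, 1 after PD1d/IL-33 ACT at day 12, and 3 under PD1d/IL-2v/IL-33 ACT on days 5, 12 and 26. PD1d/IL-2v/IL-33 ACT was a mix of PD1d/IL-33 and PD1d/IL-2v OT1 cells, ACT was given as 2 transfers, and no recipient was lymphodepleted. For the libraries the methods describe, tumors of 5 mice were pooled per condition before sorting. A condition at a given day is therefore 1 library, and differences between libraries are given with counting error only and without a test.

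AP-1 is a dimer of basic leucine zipper proteins, usually 1 of the FOS family (Fos, Fosb, Fosl2) with 1 of the JUN family (Jun, Junb, Jund), that binds DNA at AP-1 sites. Fos, Fosb, Jun and Junb are immediate-early genes: receptor signals switch them on within minutes, and so does the enzymatic digestion that releases cells from a tumor. Batf and Batf3 are small bZIP proteins that pair with JUN proteins and act with IRF4 or IRF8; Batf is needed for effector T cells and Batf3 for cross-presenting dendritic cells. Atf3 is a stress-induced bZIP factor, and Bhlhe40 is a basic helix-loop-helix repressor induced by T cell activation that is outside the bZIP family.

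Of 15700 barcodes with 98669511 UMIs (1387032 to 24917112 per library), 12828 cells passed the quality filter, 202 to 3655 per library, with median UMIs per cell of 4403.5 to 7297. Cells were gated by raw marker UMIs into 5080 CD8 T, 1202 CD4 T, 2418 NK and 1359 myeloid cells, and 2769 (21.6%) stayed ungated. The CD8 T gate holds transferred OT1 and host cells together. Markers were checked, of which Gzma and H2-Aa were not used by the gates. Levels are in CPM, the counts of a gene scaled to a common total of UMIs per gate and library. Gzma was at 5254 to 10899 CPM in NK cells and 79.9 to 2006 CPM in CD8 T cells, and H2-Aa at 2896 to 5506 CPM in myeloid cells and 4.98 to 31.2 CPM in CD8 T cells. The lists did not separate every pair of gates. The CD8 T check list holds Cd3d, Cd3e, Cd8a and Cd8b1, which the gates also used, so its sum is partly set by them. That sum was at 2417 to 5026 CPM in CD4 T cells and 4039 to 7184 CPM in CD8 T cells. The myeloid check list holds Tyrobp, a gene NK cells also express. It was at 2304 to 3722 CPM in NK cells and 106 to 270 CPM in CD8 T cells. The 3 gates left out of comparisons held under 30 cells (23 CD4 T and 28 myeloid cells of the non-treated library, 15 myeloid cells of untransduced ACT day 12), and the untransduced ACT day 12 library gave only 42 CD8 T cells. Libraries shared 143 barcodes, at most 17 per pair. Identifiers in the deposited description of each library placed the libraries in 5 groups, called runs here. No label says what these identifiers stand for. Only 3 of the pairs compared below were of the same run: PD1d/IL-33 with PD1d/IL-2v ACT, PD1d/IL-2v/IL-33 ACT with untransduced ACT at day 12, and PD1d/IL-2v/IL-33 ACT day 26 with non-treated tumors.

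RefSeq promoters were available for 9 of the 10 genes (GRCm38.p6, with none for Bhlhe40). The 250 bases before the start of 4 of them are shown 5′ to 3′ on the gene's strand, because Fos and Junb on the one hand and Fosb and Fosl2 on the other had different orders of libraries. Capitals mark the letters TGACG or their reverse complement CGTCA, a shortened form of the cyclic AMP response element. Fos lies on the plus strand at chr12:85473640-85473889, Junb on the minus strand at chr8:84978749-84978998, Fosb on the minus strand at chr7:19310046-19310295 and Fosl2 on the plus strand at chr5:32136222-32136471.
Fos: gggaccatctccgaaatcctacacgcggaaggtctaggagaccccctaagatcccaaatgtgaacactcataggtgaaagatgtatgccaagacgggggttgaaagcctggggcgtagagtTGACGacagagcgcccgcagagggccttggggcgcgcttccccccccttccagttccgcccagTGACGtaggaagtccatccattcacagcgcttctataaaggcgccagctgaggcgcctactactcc
Junb: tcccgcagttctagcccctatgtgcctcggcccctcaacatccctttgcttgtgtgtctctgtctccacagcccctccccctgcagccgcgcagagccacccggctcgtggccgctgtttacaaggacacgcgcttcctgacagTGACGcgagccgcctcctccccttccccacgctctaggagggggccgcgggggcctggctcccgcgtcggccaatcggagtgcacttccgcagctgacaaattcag
Fosb: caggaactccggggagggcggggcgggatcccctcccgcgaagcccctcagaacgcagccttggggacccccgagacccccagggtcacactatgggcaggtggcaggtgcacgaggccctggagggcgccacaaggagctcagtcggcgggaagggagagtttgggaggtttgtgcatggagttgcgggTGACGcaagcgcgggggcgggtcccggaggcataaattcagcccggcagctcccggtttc
Fosl2: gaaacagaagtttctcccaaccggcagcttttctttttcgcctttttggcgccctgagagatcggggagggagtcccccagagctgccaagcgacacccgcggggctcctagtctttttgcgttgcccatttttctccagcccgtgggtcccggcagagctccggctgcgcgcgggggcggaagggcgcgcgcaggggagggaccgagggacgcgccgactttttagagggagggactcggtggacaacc
Matches were counted on either strand over the 250 bases before the start and a shorter stretch after it. The short form TGACG occurred in 5 of the 9 promoters (Fos, Fosb, Junb, Atf3 and Batf), against 20.8% of 32851 promoters in the table. In each it lay before the start that was used to set the window. The Fosb window shown overlaps the RefSeq gene, whose 5′ end is at chr7:19310118, and the Fosb match lies inside that overlap. The full element TGACGTCA, which includes the short form, was in 0 of 9 (1.79% of all), and the AP-1 site TGANTCA in 0 of 9 (7.81% of all). These are letter matches in a short window and say nothing of whether a factor binds there.

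Fos, the best known immediate-early gene, had its 3 highest levels in CD8 T and NK cells in the 3 libraries without engineered OT1 cells. The lowest of those 3, untransduced ACT day 12, held only 42 CD8 T and 51 NK cells. Its CD8 T level was not apart from that of PD1d/IL-2v ACT beyond counting error. In CD8 T cells Fos stood at 151 CPM in the non-treated library, 100.3 after untransduced ACT at day 5, 72.6 after untransduced ACT at day 12, 67.6 after PD1d/IL-2v ACT, 63.8 after PD1d/IL-33 ACT, and 36.3, 50.6 and 36.5 under PD1d/IL-2v/IL-33 ACT on days 5, 12 and 26. The 3 PD1d/IL-2v/IL-33 libraries were the 3 lowest. CD4 T cells had another order, with 27.7 CPM of Fos after untransduced ACT day 12 as the lowest of 7 libraries and 223 CPM for PD1d/IL-2v/IL-33 ACT day 12 as the highest, beside 201 CPM after untransduced ACT day 5. Of the 7 neighbouring pairs in the CD8 T order, 3 were apart beyond counting error: non-treated over untransduced day 5, PD1d/IL-33 over PD1d/IL-2v/IL-33 day 12, and the latter over day 26.

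In NK cells the same gene ran from 761 CPM in non-treated tumors, 466 after untransduced ACT at day 5 and 178 at day 12, to 107 after PD1d/IL-2v ACT, 131 after PD1d/IL-33 ACT, and 78.3, 42.4 and 99.6 under PD1d/IL-2v/IL-33 ACT on days 5, 12 and 26. The share of NK cells with Fos transcripts had the same extremes among the libraries named here. With every cell thinned to 2000 UMIs, 54.3% of NK cells held a Fos UMI in the non-treated library, 41.8% after untransduced ACT day 5 and 8.30% after PD1d/IL-2v/IL-33 ACT day 12. Before thinning the shares were 65.7%, 58.9% and 17.6%. After thinning to 2000 UMIs, C1qa, a macrophage gene that lymphocytes lack, had a UMI in 0 of 2418 NK cells (exact binomial 95% upper limit 0.152%). That share is not scaled to the level of Fos and so does not bound the background of Fos from free RNA.

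Junb, a JUN protein that pairs with BATF in T cells, was also highest in the non-treated and untransduced day 5 libraries, with another order below them. CD8 T cells held 2302 CPM in non-treated tumors and 2057 after untransduced ACT day 5, 1191 after untransduced ACT day 12, 1244 after PD1d/IL-2v ACT, 626 after PD1d/IL-33 ACT, and 589, 875 and 886 under PD1d/IL-2v/IL-33 ACT on days 5, 12 and 26. In NK cells Junb was 3026 CPM in non-treated tumors and 816 and 820 under PD1d/IL-2v/IL-33 ACT on days 5 and 12, with 1653 at day 26. Jun, the founding JUN gene, spanned 31.8 to 106 CPM in CD8 T cells and 52.0 to 588 CPM in NK cells, with both minima after PD1d/IL-2v/IL-33 ACT day 12.

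Atf3, the stress-induced member, was low in lymphocytes, at 3.29 to 17.9 CPM in CD8 T cells and 1.90 to 61.8 CPM in NK cells, and abundant in myeloid cells. Myeloid cells held 1617 CPM of Atf3 after untransduced ACT day 5, 1397 after PD1d/IL-2v ACT, 978 after PD1d/IL-33 ACT, and 541, 498 and 1417 under PD1d/IL-2v/IL-33 ACT on days 5, 12 and 26. Myeloid Fos was 2863, 1720 and 978 CPM in the first 3 of these libraries and 681, 573 and 2016 CPM in the last 3. Both genes were thus lowest at days 5 and 12 of PD1d/IL-2v/IL-33 ACT, in a gate of 40 to 338 cells per library.

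Fosb, also an inducible FOS gene, had another order. CD8 T cells held 93.9 CPM in non-treated tumors, 43.1 after untransduced ACT at day 5 and 7.26 (2 UMIs) at day 12, 16.6 after PD1d/IL-2v ACT, 45.7 after PD1d/IL-33 ACT, and 66.4, 98.8 and 5.70 under PD1d/IL-2v/IL-33 ACT on days 5, 12 and 26. The level after PD1d/IL-2v/IL-33 ACT was thus high at days 5 and 12 and lowest of all 8 libraries at day 26. Thinned to 2000 UMIs, 13.4% of CD8 T cells held a Fosb UMI at day 12 and 0.742% at day 26 (33.6% and 2.49% before thinning).

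Fosl2, a longer-lived FOS-related gene, shared that order in part: 283 CPM in CD8 T cells under PD1d/IL-2v/IL-33 ACT on day 12, 189 at day 5 and 70.7 at day 26, against 222 in non-treated tumors, 185 and 90.8 after untransduced ACT at days 5 and 12, 114 after PD1d/IL-2v ACT and 138 after PD1d/IL-33 ACT. Jund, the JUN gene that most cells express without stimulation, was highest in CD8 T cells under PD1d/IL-2v/IL-33 ACT on days 5 and 12 (673 and 567 CPM) and low at day 26 (249) and after untransduced ACT day 12 (243). In NK cells Fosb was 79.7 and 75.2 CPM at days 5 and 12 and 5.86 CPM (2 UMIs in 74 cells) at day 26, 6.56 after PD1d/IL-2v ACT and 53.3 after PD1d/IL-33 ACT. CD4 T cells gave Fosb values of 79.2, 169 and 5.34 CPM at days 5, 12 and 26 of PD1d/IL-2v/IL-33 ACT, and 0 after untransduced ACT day 12 (33 cells).

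**Figure D1:**
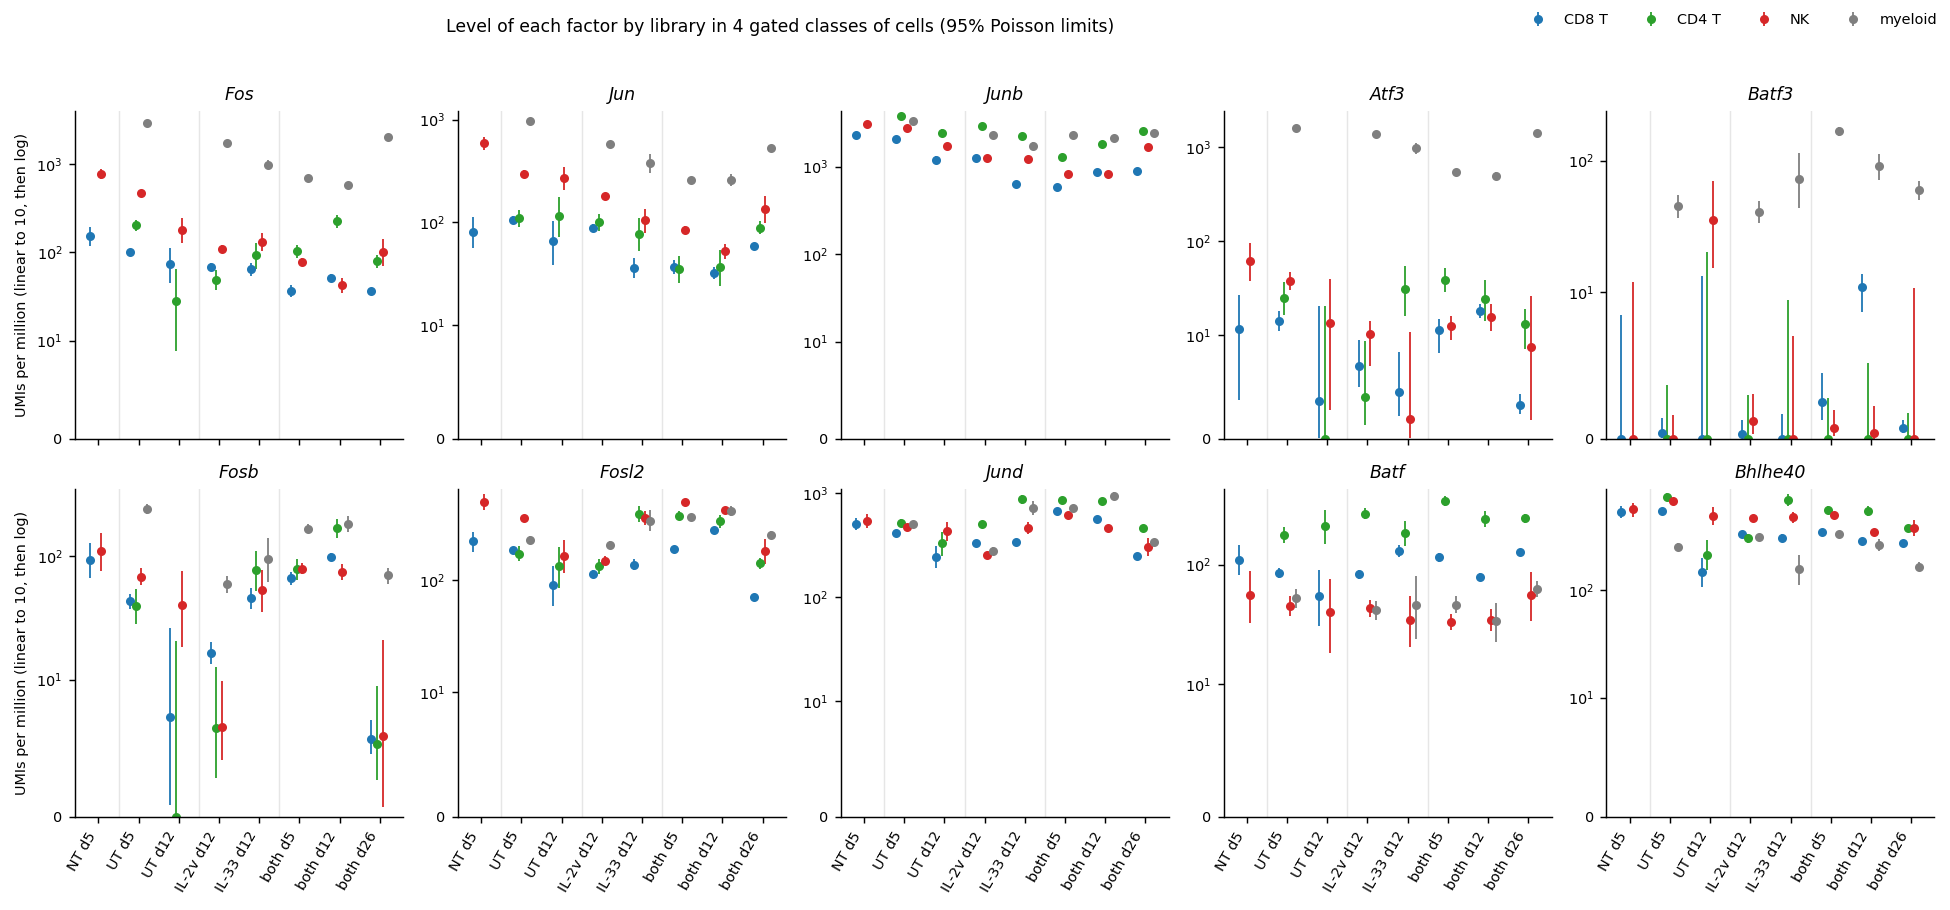
Level of each of the 10 genes in CPM (vertical axis linear to 10, then log) by library, with 1 coloured point per gate (CD8 T, CD4 T, NK, myeloid). NT is non-treated, UT untransduced ACT, IL-33 and IL-2v the PD1d/IL-33 and the PD1d/IL-2v ACT libraries, "both" PD1d/IL-2v/IL-33 ACT, each with its day; bars are exact Poisson 95% limits for counting error. Fos and Junb are high at the non-treated and untransduced day 5 libraries, and Fosb is low at PD1d/IL-2v ACT and at PD1d/IL-2v/IL-33 ACT day 26 in the lymphocyte gates.

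Comparisons between libraries used the log2 ratio of CPM plus 10, over genes with at least 50 UMIs in the pair, and a gene was called when past 2-fold. At day 5, CD8 T cells after PD1d/IL-2v/IL-33 ACT held less Fos (log2 ratio −1.25, 95% counting interval −1.47 to −1.04), Jun (−1.32, −1.53 to −1.10) and Junb (−1.79, −1.85 to −1.73) than after untransduced ACT. Those 3 of 9 testable members were past 2-fold, against 3.11% of the 8737 genes tested, and 0 were higher. The other testable members stayed under the 2-fold mark, with Jund at 0.69, Fosb at 0.52, Batf at 0.40, Fosl2 at 0.03, Atf3 at −0.18 and Bhlhe40 at −0.64. Batf3 had too few UMIs to be tested.

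The NK cells of the same pair gave 4 of 9 members past 2-fold, all lower, with Fos at −2.43, Junb at −1.74, Jun at −1.70 and Atf3 at −1.09 (4.57% of all genes past 2-fold). CD4 T cells had Junb at −1.57 and Jun at −1.42 lower, Fosl2 at 1.09 higher and Fos at −0.91, so that 3 of 9 passed (10.4% of all genes). Myeloid cells had Fos at −2.06, Jun at −1.85 and Atf3 at −1.56 lower and Batf3 at 1.69 higher, or 4 of 10 (7.2% of all genes). Jun was past 2-fold lower in all 4 gates of this pair. The 2 libraries are of different runs (runs 2 and 1), with mitochondrial shares of 3.52% and 2.54% of UMIs, so condition and run cannot be told apart.

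The IL-33 arm could be set against the IL-2v arm within run 5, at day 12. CD8 T cells after PD1d/IL-33 ACT held more Fosb (1.07, 0.76 to 1.37) and less Jun (−1.09, −1.37 to −0.82) than after PD1d/IL-2v ACT, 2 of 8 testable members (3.04% of all genes). Junb stood just inside the mark at −0.98. NK cells had Fosb at 1.93 (1.39 to 2.45) and Fosl2 at 1.20 (0.96 to 1.43) higher, 2 of 8 (5.01% of all genes). CD4 T cells had Fosl2 at 1.49 and Bhlhe40 at 1.16 higher, 2 of 7 (11.5% of all genes), and their Fosb ratio of 2.41 rested on fewer than 50 UMIs. Foxp3, the factor of regulatory T cells, had a UMI in 15 of 80 CD4 T cells after PD1d/IL-33 ACT and 123 of 171 after PD1d/IL-2v ACT. The part of this difference in the CD4 T ratios was not tested. Myeloid cells had Jund alone past 2-fold, at 1.33, from 40 cells after PD1d/IL-33 ACT. That is 1 of 10 members, near the share over all genes (10.8%).

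PD1d/IL-2v/IL-33 ACT day 12 (run 3) was also set against PD1d/IL-2v ACT (run 5), where arm and run cannot be told apart. Against PD1d/IL-2v ACT, the PD1d/IL-2v/IL-33 CD8 T cells of day 12 held more Fosb (2.03, 1.82 to 2.24), Fosl2 (1.25, 1.12 to 1.37) and Batf3 (1.02, 0.81 to 1.20) and less Jun (−1.24, −1.42 to −1.05), 4 of 10 members (2.08% of all genes). NK cells gave Fosb 2.36 and Fosl2 1.44 higher and Jun −1.61 and Fos −1.16 lower, 4 of 9 (3.81% of all genes). CD4 T cells gave Fosb 3.45, Fos 2.00 and Fosl2 1.27 higher and Jun −1.24 lower, 4 of 8 (8.26% of all genes). A Foxp3 UMI was in 26 of 122 of these CD4 T cells, against 123 of 171 after PD1d/IL-2v ACT. The part of this difference was not tested here either. Myeloid cells gave Jund 1.72 and Fosb 1.48 higher and Fos −1.57, Atf3 −1.47 and Jun −1.15 lower, 5 of 10 (6.72% of all genes). Jun was thus lower and Fosb higher in every gate of this pair.

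Against PD1d/IL-33 ACT the CD8 T cells from PD1d/IL-2v/IL-33 ACT day 12 had 1 of 10 members past 2-fold, Batf3 at 1.07 (1.69% of all genes), with Fosl2 at 0.99, Fosb at 0.97 and Atf3 at 0.94 just under it. With a constant of 1 CPM, with TMM scaling or with gates from 2 UMIs that count became 4. Against untransduced ACT of the same day and run 3, 5 of 10 were past 2-fold in CD8 T cells, all higher, with Fosb at 2.66 (1.58 to 3.33), Fosl2 at 1.54, Jund at 1.19, Batf3 at 1.07 and Atf3 at 1.04 (7.73% of all genes). The intervals of Batf3 (−0.17 to 1.25) and Atf3 (−0.13 to 1.50) spanned 0, since the untransduced library held 42 cells, and the count was 3 after thinning. CD4 T cells gave Fosb 4.17, Fos 2.63, Jund 1.32, Bhlhe40 1.31 and Fosl2 1.28, 5 of 7, all higher (7.96% of all genes), from 33 untransduced cells. NK cells gave Fosl2 1.32 higher and Jun −2.18, Fos −1.84 and Junb −1.04 lower, 4 of 8 (9.85% of all genes). Fosl2 was thus past 2-fold higher in all 3 lymphocyte gates of this pair. Against PD1d/IL-33 ACT, CD4 T cells had Fos at 1.18 and Fosb at 1.04, 2 of 8 (2.27% of all genes), NK cells had Fos at −1.43, 1 of 8 (2.89%), and myeloid cells had 0 of 9 (5.11%). The comparisons with the day 12 library of PD1d/IL-2v/IL-33 ACT share that library and are not independent. Their Batf3 calls in CD8 T cells lie at the edge of 2-fold. They are lost without the cells that held an H2-Aa UMI, where the level falls under the added 10 CPM, as given below.

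Between days 5 and 12 of PD1d/IL-2v/IL-33 ACT, 0 of 10 members passed 2-fold in CD8 T cells (0.654% of all genes), 0 of 9 in NK cells (0.653%) and 0 of 10 in myeloid cells (1.96%). CD4 T cells had Fos at 1.05 and Fosb at 1.01, 2 of 9 (2.1% of all genes). Day 26 was then set against day 12. CD8 T cells held less Fosb (−2.79, −2.94 to −2.64), Fosl2 (−1.86, −1.96 to −1.76), Jund (−1.16) and Atf3 (−1.07), 4 of 10 (3.17% of all genes), while Junb stood at 0.02. NK cells had Fosb at −2.43 and Fosl2 at −1.18 lower and Jun at 1.22, Fos at 1.06 and Junb just past the mark higher, 5 of 8 (10.6% of all genes). CD4 T cells had Fosb at −3.55, Fos at −1.39 and Fosl2 at −1.19 lower and Jun at 1.09 higher, 4 of 8 (5.65% of all genes). Myeloid cells had Jund at −1.47 and Fosb at −1.28 lower and Fos at 1.80, Atf3 at 1.49 and Jun at 1.03 higher, 5 of 10 (4.3% of all genes). Fosb was lower at day 26 in all 4 gates. The days 12 and 26 were in runs 3 and 4, so day and run cannot be told apart.

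The non-treated library gave 2 further comparisons. Untransduced ACT day 5 (run 1) had 0 of 9 members past 2-fold against it (run 4) in CD8 T cells (2.07% of all genes) and 0 of 9 in NK cells (1.56%), although NK cells came near the mark for Jun (−0.96, −1.20 to −0.73). Within run 4, PD1d/IL-2v/IL-33 ACT day 26 had lower Fosb (−2.73, −3.14 to −2.29), Fos (−1.79), Fosl2 (−1.52) and Junb (−1.37) in CD8 T cells, 4 of 9 (2.04% of all genes), with Jund just under 2-fold. In NK cells Fos (−2.81), Jun (−2.05) and Fosl2 (−1.41) were lower, 3 of 6 (2.81% of all genes), from 74 and 70 cells. The non-treated library is of day 5, so treatment and day cannot be told apart in this pair.

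**Figure D2:**
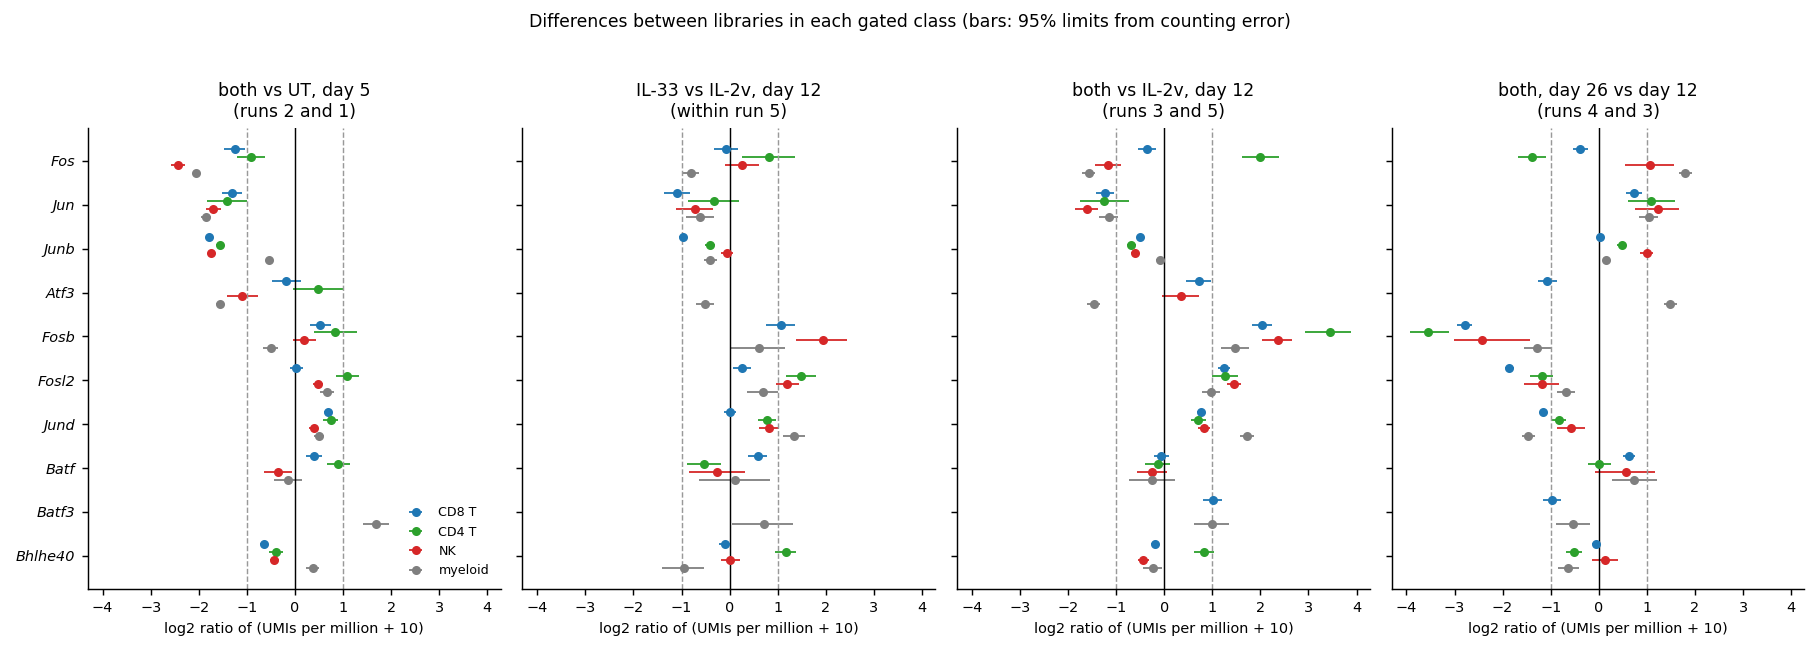
Log2 ratio of CPM plus 10 (horizontal) for each gene in 4 of the comparisons, 1 coloured point per gate, with 95% counting intervals and dashed lines at 2-fold; genes under the UMI minimum have no point and labels are as in the plot of levels. Fos, Jun and Junb lie to the left for PD1d/IL-2v/IL-33 against untransduced ACT at day 5, and Fosb and Fosl2 lie to the right at day 12 against PD1d/IL-2v ACT and to the left at day 26.

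Tumors were dissociated mechanically and with enzymes before sorting, and digestion is known to induce immediate-early and heat-shock genes. The summed level of 17 immediate-early genes outside AP-1 (among them Egr1, Ier2, Dusp1 and Zfp36) is given beside Fos and Junb for this reason. In CD8 T cells the sum was 3755 CPM in non-treated tumors and 3354 after untransduced ACT day 5, against 1757, 1662 and 1863 under PD1d/IL-2v/IL-33 ACT on days 5, 12 and 26. At day 12 the sum was 2367 after untransduced ACT, 2261 after PD1d/IL-2v ACT and 1757 after PD1d/IL-33 ACT. In NK cells the sum was 7281 CPM in non-treated tumors and 6206 after untransduced ACT day 5, against 2319 and 1953 under PD1d/IL-2v/IL-33 ACT on days 5 and 12. Myeloid cells held 25664 CPM after untransduced ACT day 5 and 12589 after PD1d/IL-2v/IL-33 ACT day 5.

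Gene by gene, the day 5 comparison in CD8 T cells had 4 of 16 tested immediate-early genes lower past 2-fold (Ier2, Dusp1, Zfp36 and Rhob) and 0 higher, with a median log2 ratio of −0.70 against −0.09 over all genes. In NK cells 9 of 15 were lower and 1 higher, with a median of −1.14 against −0.16 over all genes. For the 15 heat-shock and stress genes, the sum in CD8 T cells stayed between 5811 and 7477 CPM over the 8 libraries, and 0 of 15 passed 2-fold at day 5 (median −0.12). In NK cells it ran from 3977 CPM under PD1d/IL-2v/IL-33 ACT day 5 to 6750 after untransduced ACT day 12. Taking the members, the immediate-early and the heat-shock genes out of the total left each of the 9 CD8 T counts within 1.5 times. These genes are a small part of that total, so the ratios could hardly move, and this says nothing of dissociation. The part of dissociation and of run in the differences of the members, Fosb and Atf3 included, was not tested.

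The other lists are given for CD8 T cells at day 5. Of 13 genes on the MAP kinase route to AP-1, 2 were higher (Map2k7 and Srf) and 0 lower, with a median of 0.03. Of 21 other bZIP factors tested, 1 was higher (Maf) and 0 lower, with a median of 0.13. Of 6 textbook AP-1 targets tested, 1 was higher (Ifng, the effector cytokine) and 0 lower. From day 12 to day 26 the other bZIP factors had 1 of 21 lower (Maff) and a median of −0.32 against 0.12 over all genes, and the MAP kinase route had 0 of 13 past 2-fold. Of the 3 FOS-like genes outside the members (Fosl1, Jdp2 and Batf2), 1 could be tested in CD8 T cells at day 5 and it stayed under 2-fold.

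**Figure D3:**
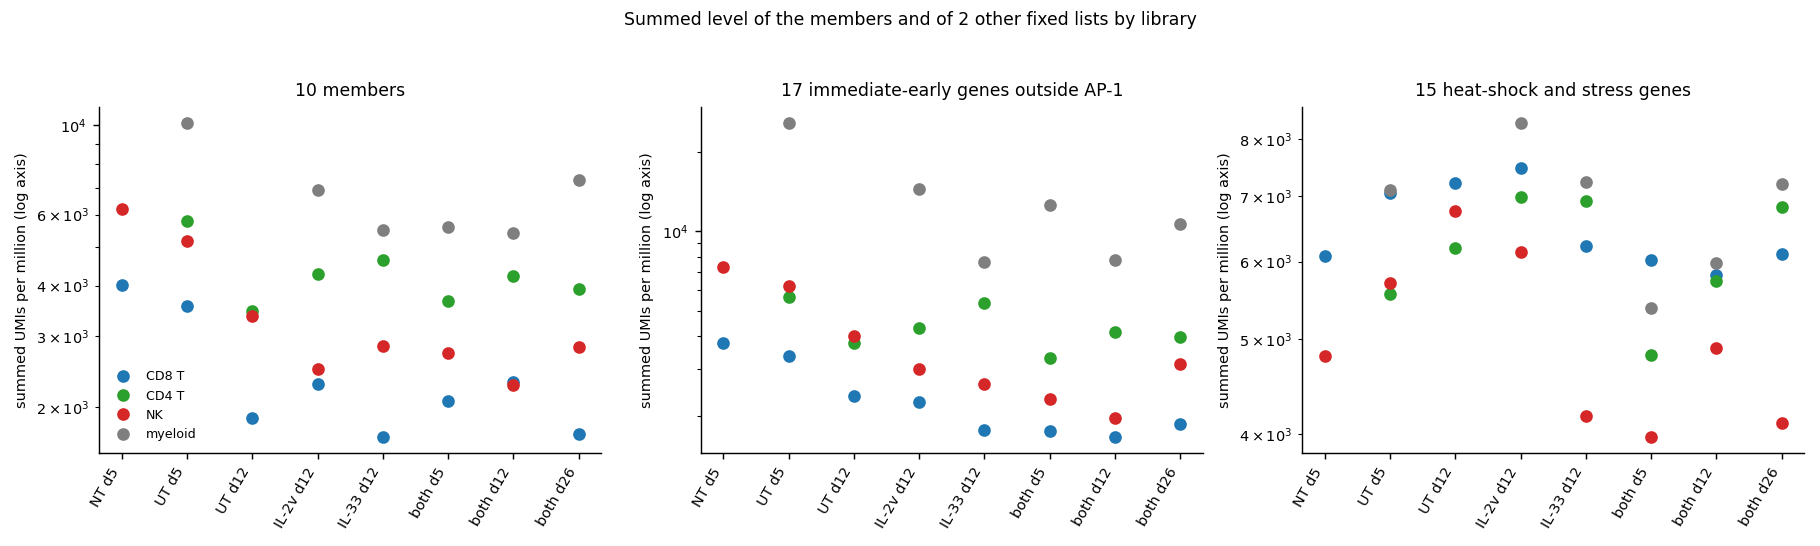
Summed CPM of the 10 members, the 17 immediate-early genes outside AP-1 and the 15 heat-shock genes per library and gate (log axes); labels as in the plot of levels. The immediate-early sum in CD8 T cells is 3755 CPM in non-treated tumors and 1662 CPM under PD1d/IL-2v/IL-33 ACT day 12, and the heat-shock sum stays between 5811 and 7477 CPM.

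Batf, the factor that drives effector programs with JUN proteins and IRF4, spanned 54.5 to 129 CPM in CD8 T cells, 33.0 to 55.7 in NK cells and 33.3 to 62.4 in myeloid cells. Its level was highest in CD4 T cells, at 177 to 339 CPM over 7 libraries. It was past 2-fold in no library comparison of any gate. Bhlhe40 was at 550 and 538 CPM in CD8 T cells after untransduced ACT day 5 and in non-treated tumors, at 277 to 350 CPM in the 5 libraries with engineered OT1 cells, and at 149 CPM after untransduced ACT day 12. Its CD4 T range was 216 to 749 CPM and its NK range 347 to 678 CPM.

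Batf3 was low in T cells. CD8 T cells held 76 Batf3 UMIs (11.0 CPM, 8.66 to 13.8) in 26 of 730 cells after PD1d/IL-2v/IL-33 ACT day 12, of which 15 UMIs were in 1 cell. They held 11 UMIs at day 5 (2.51 CPM), 11 at day 26 (0.738 CPM), 2 each after untransduced ACT day 5 and PD1d/IL-2v ACT, and 0 in the other 3 libraries. The exact Poisson 95% upper limit of a count of 0 is 1.67 CPM after PD1d/IL-33 ACT, 8.45 CPM in non-treated tumors and 13.4 CPM after untransduced ACT day 12, so that the last could not be told from 11.0 CPM. CD4 T cells held 0 Batf3 UMIs in every library. NK cells held 0 to 1.19 CPM in 7 libraries and 35.6 CPM (15.4 to 70.2) after untransduced ACT day 12, where all 8 UMIs were in 1 of 51 cells. The limits given for Batf3 and its ratios treat UMIs as independent and do not cover such clumping in single cells.

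Within the CD8 T cells from PD1d/IL-2v/IL-33 ACT day 12, Batf3 was at 16.2 CPM in the cells with a Pdcd1 UMI and 2.65 CPM in those without, and at 14.9 CPM (10.4 to 20.6) in cells with a Gzmc UMI, a granzyme, and 8.91 CPM (6.37 to 12.1) in those without. The 26 Batf3+ cells had a median of 17000.5 UMIs against 7860 in all CD8 T cells of that library. They held 0 UMIs of Xcr1 and Clec9a, which mark dendritic cells that need Batf3, and 0 of Flt3, another dendritic cell gene. They did hold 156 UMIs of the MHC class II gene H2-Aa in 5 of the 26 cells (325 CPM, against 4.04 CPM in the other 704). Xcr1, Flt3 and Clec9a were rare in the myeloid gate of that library too, in 2, 7 and 8 of 134 cells. Of the other genes examined that dendritic cells express, Cd74, the invariant chain, was in 13 of 26 cells (474 against 24.1 CPM in the other 704). Cst3 was in 23 (469 against 152 CPM) and Irf8 in 21 (280 against 166 CPM). Cst3 and Irf8 were also seen in 428 and 287 of the other 704 cells. Naaa was not higher, in 1 of 26 cells (2.09 against 3.89 CPM), while the myeloid gate held 534 CPM. Without every cell that had an H2-Aa UMI, Batf3 stood at 9.05 CPM (59 UMIs in 21 cells, some of them with a Cd74 UMI) at day 12 and at 0.211 CPM (3 UMIs) at day 26. With 10 CPM added, 9.05 CPM is under 2-fold against any level. The day 12 Batf3 calls in CD8 T cells therefore do not hold without those cells.

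In myeloid cells Batf3 was at 167 CPM (553 UMIs) after PD1d/IL-2v/IL-33 ACT day 5, 90.8 at day 12 and 59.7 at day 26, against 44.9 after untransduced ACT day 5, 40.8 after PD1d/IL-2v ACT and 72.9 after PD1d/IL-33 ACT. Cells with an Xcr1 or Clec9a UMI, a mark of cross-presenting dendritic cells, were 4.44% of the myeloid gate at day 5 of PD1d/IL-2v/IL-33 ACT and 4.49% after untransduced ACT day 5. At day 5 of PD1d/IL-2v/IL-33 ACT the 323 cells without either marker held 166 CPM (152 to 181), and the 15 with a marker held 189 CPM (130 to 266). After untransduced ACT day 5 the values were 37.9 CPM (29.9 to 47.4) and 137 CPM (84.8 to 210).

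Cell classes of the same libraries were then tested with edgeR's quasi-likelihood test on summed UMIs, with the library as a block and adjustment over all genes. Myeloid cells exceeded CD8 T cells in 8 of 10 members over 6 libraries, and 1 was lower, where 66.2% of all genes were called (33.4% higher, 32.8% lower). Atf3 was 7.03 ± 0.50 higher on the log2 scale (SE, n = 6 libraries, adjusted p = 1.46e-07), from 498 to 1617 CPM in myeloid cells and 3.29 to 17.9 in CD8 T cells. Fos was 4.71 ± 0.29 higher (adjusted p = 3.42e-08), from 573 to 2863 CPM against 36.3 to 100.3. Jun was 3.25 ± 0.12 higher (adjusted p = 3.93e-10), and Batf3 5.44 ± 0.48 higher (adjusted p = 9.44e-07). The ranges of these 4 genes did not overlap between the classes, nor did those of Batf, which went the other way. The share of all genes without overlap was not computed, so this is not a result about the members. Fosb (2.10), Junb (1.49), Fosl2 (1.17) and Jund (0.59) were also higher. Batf was lower, at −0.87 ± 0.14 (adjusted p = 0.000131). Bhlhe40 stood at −0.29 ± 0.15 (adjusted p = 0.111) and was lower in 6 of 6 libraries; it passed the threshold without PD1d/IL-2v ACT (−0.42) or without PD1d/IL-2v/IL-33 ACT day 5 (−0.39). Of the 16 immediate-early genes tested 15 were higher in myeloid cells too, and of the 15 heat-shock genes 6 were higher and 7 lower. Of 23 other bZIP factors 16 were higher, among them Cebpa and Cebpb, which are myeloid factors.

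NK cells exceeded CD8 T cells in 6 of 9 tested members over 8 libraries, and 1 was lower (40.3% of all genes called, 19.4% higher and 21.0% lower). Jun was 1.33 ± 0.15 higher (adjusted p = 1.97e-06), Fos 1.15 ± 0.21 (adjusted p = 0.000286) and Fosl2 0.93 ± 0.11 (adjusted p = 3.71e-06). Jun and Fosl2 were higher in 8 of 8 libraries. Fos was higher in 7 of 8, and the 1 library the other way was PD1d/IL-2v/IL-33 ACT day 12, the lowest for Fos in NK cells. Bhlhe40 (0.42) and Junb (0.35) were higher too. Atf3 was at 0.60 ± 0.23 (adjusted p = 0.0488), and this call was lost without any 1 of 6 libraries, all but PD1d/IL-33 ACT and PD1d/IL-2v/IL-33 ACT day 12, and with DESeq2. Batf was −1.30 ± 0.12 (adjusted p = 1.75e-07), lower in 8 of 8 libraries. Fosb (0.01) and Jund (0.00) did not pass. Of 16 immediate-early genes 8 were higher and 2 lower, and of 14 heat-shock genes 2 were higher and 8 lower. Irf8, a partner of BATF proteins, was 2.79 higher, and Irf4 and Bhlhe41 could not be tested in this pair.

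CD4 T cells exceeded CD8 T cells in 7 of 9 members over 7 libraries (27.0% of all genes called, 14.2% higher and 12.8% lower). Batf was 1.16 ± 0.13 higher (adjusted p = 1.22e-05), from 177 to 339 CPM against 54.5 to 129. Junb was 1.09 ± 0.11 higher (adjusted p = 1.77e-06) and Jund 0.52 ± 0.11 (adjusted p = 0.00308), both in 7 of 7 libraries. These 3 calls held without each library in turn. Jun (0.21, adjusted p = 0.23) and Fosb (0.11, adjusted p = 0.728) did not pass. Atf3 (1.07), Fos (0.82), Fosl2 (0.52) and Bhlhe40 (0.46) were called, but each call was lost when certain single libraries were left out. Fos lost it without untransduced ACT day 5 or any of the 3 PD1d/IL-2v/IL-33 libraries (0.57 to 0.79), and Fosl2 without PD1d/IL-33 ACT or PD1d/IL-2v/IL-33 ACT day 5 or 26 (0.37 to 0.44). Atf3 lost it without PD1d/IL-2v/IL-33 ACT day 5 or 26 (0.84 and 0.89), and Bhlhe40 without PD1d/IL-33 ACT or PD1d/IL-2v/IL-33 ACT day 5 or 12 (0.36 to 0.40). Of 16 immediate-early genes 11 were higher and 1 lower.

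**Figure D4:**
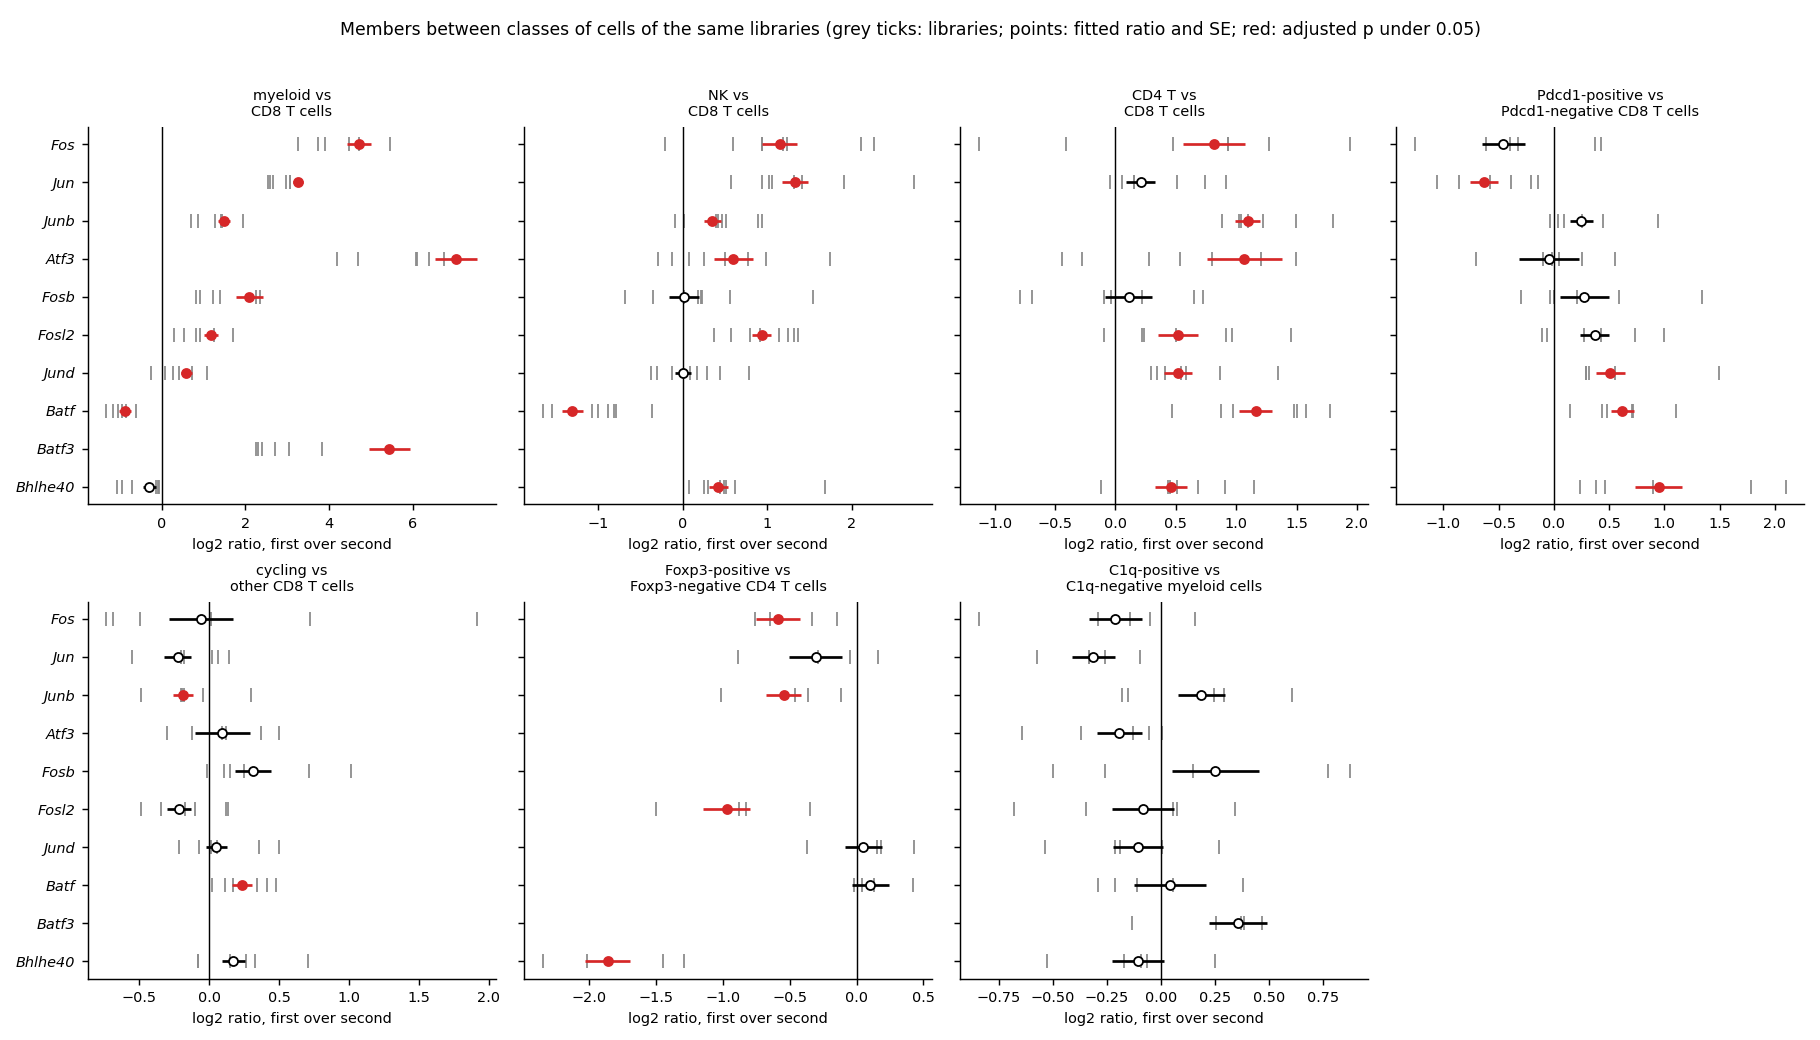
Log2 ratio between cell classes for each gene from edgeR, with its standard error, in 7 class contrasts, each with its own horizontal scale; red filled points passed an adjusted p of 0.05, and grey ticks are single libraries (log2 difference of CPM plus 10, unscaled, so that a fitted point can lie outside them). Fos, Jun, Atf3 and Batf3 are far to the right in myeloid cells, Batf is to the left in NK and to the right in CD4 T cells, and Bhlhe40 is to the right in Pdcd1+ CD8 T cells and to the left in Foxp3+ CD4 T cells.

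Among CD8 T cells, those with a Pdcd1 UMI (PD-1, the checkpoint receptor of activated T cells) differed from the others in 4 of 9 members over 6 libraries (21.7% of all genes called, 10.8% higher and 11.0% lower). Bhlhe40 was 0.95 ± 0.21 higher (adjusted p = 0.00878), at 309 to 664 CPM against 147 to 296. Batf was 0.62 ± 0.11 higher (adjusted p = 0.00201) and Jund 0.51 ± 0.13 (adjusted p = 0.0169), both in 6 of 6 libraries. Jun was −0.63 ± 0.13 (adjusted p = 0.00498), lower in 6 of 6. Fosl2 stood at 0.37 ± 0.13 (adjusted p = 0.0659) and passed without untransduced ACT day 5 (0.47) or without PD1d/IL-2v/IL-33 ACT day 5 (0.47). Fos (−0.46, adjusted p = 0.112), Junb (0.25, adjusted p = 0.112), Fosb (0.28, adjusted p = 0.421) and Atf3 (−0.04, adjusted p = 0.947) did not pass. Pdcd1+ cells were deeper, with a median of 10479 against 6445 UMIs after PD1d/IL-2v/IL-33 ACT day 12, for example, and the part of depth was not tested.

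Cycling CD8 T cells, with a UMI of Mki67, Top2a or Birc5, differed from the others over 6 libraries in 2 members. Batf was 0.23 ± 0.07 higher (adjusted p = 0.0184) and Junb −0.19 ± 0.07 (adjusted p = 0.0429), 2 of 9 against 36.1% of all genes (17.5% higher and 18.6% lower). DESeq2 called 0 of them. Cycling cells were deeper, with a median of 12973 against 5841 UMIs after untransduced ACT day 5, for example. The part of depth was not tested. The Batf call was lost without PD1d/IL-2v ACT or PD1d/IL-2v/IL-33 ACT day 5 (0.20 and 0.21), and the Junb call without PD1d/IL-33 ACT or any of the 3 PD1d/IL-2v/IL-33 libraries (−0.18 to −0.11).

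CD4 T cells with a Foxp3 UMI, the factor of regulatory T cells, were lower in 4 of 7 testable members over 4 libraries (13.1% of all genes called, 6.91% higher and 6.2% lower). Bhlhe40 was at −1.86 ± 0.17 (adjusted p = 8.75e-06), 164 to 254 CPM against 495 to 1337, and Fosl2 at −0.97 ± 0.17 (adjusted p = 0.00201). Fos (−0.59 ± 0.17, adjusted p = 0.0323) lost its call without untransduced ACT day 5 or PD1d/IL-2v/IL-33 ACT day 5 or 26, and Junb (−0.55 ± 0.13, adjusted p = 0.0122) without PD1d/IL-2v/IL-33 ACT day 26. Batf was at 0.10 ± 0.14 (adjusted p = 0.71). Of 13 immediate-early genes tested 9 were lower and 1 higher, and of 13 heat-shock genes 6 were lower and 0 higher. Foxp3+ cells had a median of 5685 against 3771 UMIs after untransduced ACT day 5, and 5858 against 5855 after PD1d/IL-2v/IL-33 ACT day 5. The part of depth was not tested, and a cell without a Foxp3 UMI may still express Foxp3. The share of Foxp3+ cells in the CD4 T gate differed between libraries, and its part in the CD4 T ratios was not tested. Myeloid cells with a C1q UMI, a macrophage mark, differed from the others in 0 of 10 members over 5 libraries with edgeR and in 0 with DESeq2, with 2 at an unadjusted p under 0.05 (7.22% of all genes called, 3.5% higher and 3.73% lower). Those were Jun (−0.31 ± 0.10, adjusted p = 0.0798) and Batf3 (0.36 ± 0.13, adjusted p = 0.13).

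Over the 29 library-by-gate sums with at least 30 cells, and among 8530 genes, the gene whose log2 level was most like that of Fos was Atf3 (Pearson r = 0.911). Jun and Fos had r = 0.863. Fosb was most like Atf4 (0.807), the stress bZIP factor, then Kdm6b and Fosl2 (0.771). Fosl2 was most like Atf4 as well (0.841), then Irs2 and Impact, and Jund most like Cmip (0.862). Junb was most like Dusp1 (0.875), an immediate-early phosphatase, and Bhlhe40 most like Slc38a10 (0.815). The closest genes to Jun, Atf3, Batf and Batf3 were Sdcbp (0.922), Nupr1 (0.970), Mif4gd (0.945) and 5031439G07Rik (0.966). These correlations describe sums that share libraries and cell classes and carry no test.

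Detection of Fos and Jun was also compared cell by cell, as a description. With cells thinned to 2000 UMIs and libraries pooled, a Jun UMI was seen in 38.3% of NK cells with a Fos UMI and 16.2% of those without, and in 18.2% against 8.03% of CD8 T cells. Because libraries differ in both genes, the share within 1 library is given too: after PD1d/IL-2v/IL-33 ACT day 12 it was 25.0% (11 of 44) against 4.08% (28 of 686) in CD8 T cells. For Fosb and Fosl2 the pooled shares of 37.1% and 19.0% in CD8 T cells came closer within that library, 46.9% (46 of 98) against 38.4% (243 of 632).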

How the data were processed

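Cells were dissociated from tumors, sorted as CD45+ (enriched in CD8+ cells, per the study) and sequenced with 10x 5′ single-cell libraries. The deposited values are raw UMI counts per gene and cell, which per the labels the authors made with Cell Ranger 2.2.0 and bcl2fastq on GRCm38. The study's methods name another Cell Ranger version, and which one made these files is not settled here. Cells with 500 to 6000 genes, 2000 to 40000 UMIs, 5 to 60% ribosomal and under 10% mitochondrial UMIs were kept, and doublets were not called. Gates used raw UMIs. CD8 T cells had a Cd3d, Cd3e or Cd3g UMI and a Cd8a or Cd8b1 UMI, no Cd4 or B cell UMI and at most 2 of 7 myeloid genes, and CD4 T cells likewise with Cd4 and without Cd8. NK cells had an Ncr1 or Klrb1c UMI, no Cd3, Cd8, Cd4 or B cell UMI and at most 2 of the 7 myeloid genes. Myeloid cells had at least 3 of the 7 myeloid genes and no Cd3, Cd8, NK or B cell UMI, while Cd4 was allowed.

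Counts were summed per library and gate with at least 30 cells. Libraries were compared by log2 ratios of CPM plus 10 with exact Poisson 95% limits, which cover counting error only. With 1 library per condition and day no test was run between conditions. Classes were tested across libraries with edgeR 4.0.16 (quasi-likelihood, library as block, Benjamini-Hochberg adjustment over all genes) and checked with DESeq2 1.42.0. The libraries act as replicates there although they differ in condition. The edgeR test and the counting intervals were tried on simulated data. For myeloid against CD8 T cells (9867 genes) edgeR recovered 41% of 2-fold and 93% of 4-fold changes, and for Pdcd1+ against Pdcd1- cells (9192 genes) 44% and 95%. One further planned comparison of CD8 T cell classes is not reported here. The rule for named genes took all 10 members in every comparison, of which those past the threshold are printed and the others in part; genes of other lists are named where past the threshold (up to 3 in each direction, more where a count of 5 or fewer is spelled out), and for likeness the rule was the 3 genes of highest Pearson r per member, of which the first is given and others in part. The members and lists were chosen with earlier results of these data known. Alternatives were another pseudocount, scaling, cell filter, gate, thinning to 2000 UMIs, averaging over cells, omitted gene lists, omitted libraries and no block. R 4.3.3, Python 3.11.15, numpy 2.4.6, pandas 2.3.3 and scipy 1.17.1 were used.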

Additional observations from a re-analysis of the deposited data

Results flagged for a closer look

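The difference of each member between classes was screened in every group of 4 to 10 libraries for 1 library far from the others. That held for 2 of 63 groups, where chance gives about 3.15. Bhlhe40 was 1.68 higher on the log2 scale in NK than in CD8 T cells after untransduced ACT day 12, against 0.61 in the next library (n = 8). Jund was 1.49 higher in Pdcd1+ than in Pdcd1- CD8 T cells after PD1d/IL-2v ACT, against 0.55 in the next (n = 6).

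Over 88 combinations of a member and a library comparison, 7 pairs of gates were past 2-fold in opposite directions, and the difference between the gates was not tested. Fos was higher in CD4 T cells and lower in NK cells for PD1d/IL-2v/IL-33 ACT day 12 against untransduced ACT (2.63 and −1.84), against PD1d/IL-2v ACT (2.00 and −1.16) and against PD1d/IL-33 ACT (1.18 and −1.43), and the second of these also set CD4 T cells against myeloid cells (−1.57). From day 12 to day 26, Fos was lower in CD4 T cells (−1.39) and higher in NK (1.06) and myeloid cells (1.80). Atf3 was lower in CD8 T cells (−1.07) and higher in myeloid cells (1.49) over the same days.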

How the results depend on the processing

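Of 1813 values and counts recomputed under the alternatives, 0 reversed the direction of a called member. Changes of sign in members that were not called were not counted. Counts of members past the threshold stayed within 1.5 times in 150 of 180 cases. In CD8 T cells the 5 members past 2-fold in PD1d/IL-2v/IL-33 against untransduced ACT day 12 became 3 after thinning and 3 with the mean over cells. The 1 member against PD1d/IL-33 ACT became 4 with a pseudocount of 1, 4 with TMM factors, 4 with gates from 2 UMIs, 3 without cycling cells and 2 with the second cell filter. The 2 of PD1d/IL-33 against PD1d/IL-2v ACT became 1 without the cells of highest UMIs, 1 without cycling cells and 1 after thinning. The 0 of day 12 against day 5 became 1 with a pseudocount of 1, and the 0 of untransduced ACT against non-treated tumors became 1 with a pseudocount of 1, 1 after thinning and 1 with the mean over cells. Without the library block, the pairing of classes within a library, the calls went from 7 to 4 (NK), 7 to 2 (CD4 T), 4 to 1 (Pdcd1), 2 to 0 (cycling) and 4 to 1 (Foxp3). Without the expression filter there were 8 calls for Pdcd1, 5 for cycling and 1 for C1q. Gates from 2 UMIs gave 4 for CD4 T and 4 for cycling, and DESeq2 0 for cycling. Leaving out 1 library gave 9 to 10 calls for myeloid, 6 to 7 for NK, 3 to 7 for CD4 T, 4 to 5 for Pdcd1, 1 to 3 for cycling, 2 to 6 for Foxp3 and 0 to 0 for C1q. Dropping the cells with an H2-Aa UMI, chosen after seeing the data, left Batf3 at 9.05 CPM. That is within the counting interval of all cells (8.66 to 13.8 CPM). With 10 CPM added, no level under 10 CPM can be called higher, so the loss of its day 12 CD8 T calls is set by that constant. Between conditions no paired analysis was possible because each condition and day is 1 library. Small gates (33 CD4 T and 42 CD8 T cells of untransduced ACT day 12, 40 myeloid cells of PD1d/IL-33 ACT) and Batf3 in lymphocytes are limited by depth.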
